A study of Mus musculus with 6 samples.

Results

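Sialyltransferases are the Golgi enzymes that cap the sugar chains of proteins and lipids with sialic acid. In this liver RNA-seq series they were represented by 9 genes of the 48699 in the deposited table, taken by gene name: St6gal1 (alpha2,6 linkage to galactose), St3gal1, St3gal2, St3gal3, St3gal4, St3gal5 and St3gal6 (alpha2,3 linkage to galactose), and St6galnac4 and St6galnac6 (alpha2,6 linkage to N-acetylgalactosamine or N-acetylglucosamine within an already sialylated chain). Their mRNA was compared between 3 control mice homozygous for floxed alleles of both receptor genes (genotype Fxrfl/fl Shpfl/fl, called control) and 3 mice with hepatocyte-specific loss of both (fxr-/- shp-/-, called double knockout). Every mouse was a male C57BL/6 aged 10 to 12 weeks, sampled after an overnight fast of 8 to 10 hours. All libraries of both groups carry the word chow in their deposited names, with no further detail of the diet. FXR is the bile acid receptor, encoded by Nr1h4, and SHP is a nuclear receptor that represses transcription, encoded by Nr0b2. The Cre driver of the deletion is not named in the sources used here, and the cells of the liver other than hepatocytes keep both genes by design.

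Each sialyltransferase moves sialic acid from the activated donor CMP-sialic acid, which is made in the cytosol and nucleus and carried into the Golgi, onto a galactose or another sugar at the end of a chain. Hepatocytes secrete most plasma glycoproteins, and St6gal1 is the enzyme that places alpha2,6-linked sialic acid on their N-glycans. St3gal3, St3gal4 and St3gal6 place alpha2,3-linked sialic acid on chains of the same kind, while St3gal1 and St3gal2 act on core 1 O-glycans and St3gal5 makes GM3, the first ganglioside. Desialylated glycoproteins are taken up from blood by the asialoglycoprotein receptor of hepatocytes.

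Levels are in FPKM (mapped fragments scaled to transcript length and library size), so levels of different genes can be set side by side. Read from the steps of the low values, library depth was 13.2 to 14.1 in units of 1e6 fragments. Nr0b2 measured 14.7 to 18.7 FPKM in control livers but no more than 0.293 FPKM in the knockouts, and Nr1h4 59.8 to 71.8 FPKM against 15.5 to 22.0 FPKM; which exons were deleted is not given here, so the Nr1h4 value may include exons that remain. Control replicate 3 stood apart from the other controls. Over the log2 values of all tested genes its correlations with them were 0.952 and 0.955, against 0.983 between those 2. Its immediate-early transcripts, such as Fos at 53.7 FPKM against at most 2.60 FPKM elsewhere, were high. Its correlation with double knockout replicate 3 was higher, at 0.966. That knockout came next for Fos (2.60 FPKM) and for Jun (31.5 FPKM, against 125 FPKM in control replicate 3). Results for the tested genes whose call changes, or whose value moves by over 1.5 times, without control replicate 3 are given both ways.

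Liver levels of the 9 genes covered a wide range. St3gal5 was the most abundant in both groups, with a mean of 284 ± 49.9 FPKM in the controls and 227 ± 45.9 FPKM in the knockouts (SD, n = 3 each). In the controls St3gal3 (47.2 FPKM) and St3gal4 (42.7 FPKM) came next, with ranges that overlapped, followed by St6galnac6 (29.3 FPKM), St6gal1 (19.1 FPKM) and St3gal1 (15.8 FPKM). The ranges of St6galnac6 and St6gal1 did not overlap in the controls, and those of St6gal1 and St3gal1 did. In the knockouts the order was the same except that St6gal1, at 41.0 FPKM, stood beside St6galnac6, at 40.5 FPKM, with overlapping ranges. St3gal6 was far lower (2.07 and 3.84 FPKM), and St3gal2 and St6galnac4 were near the limit of detection, with means between 0.245 and 0.501 FPKM. St6galnac4 rested on only about 12.6 to 22.4 fragments per library and St3gal2 on about 13.4 to 43.3, against 1057 to 2887 for St6gal1, reckoned on the longest annotated transcript.

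**Figure D1:**
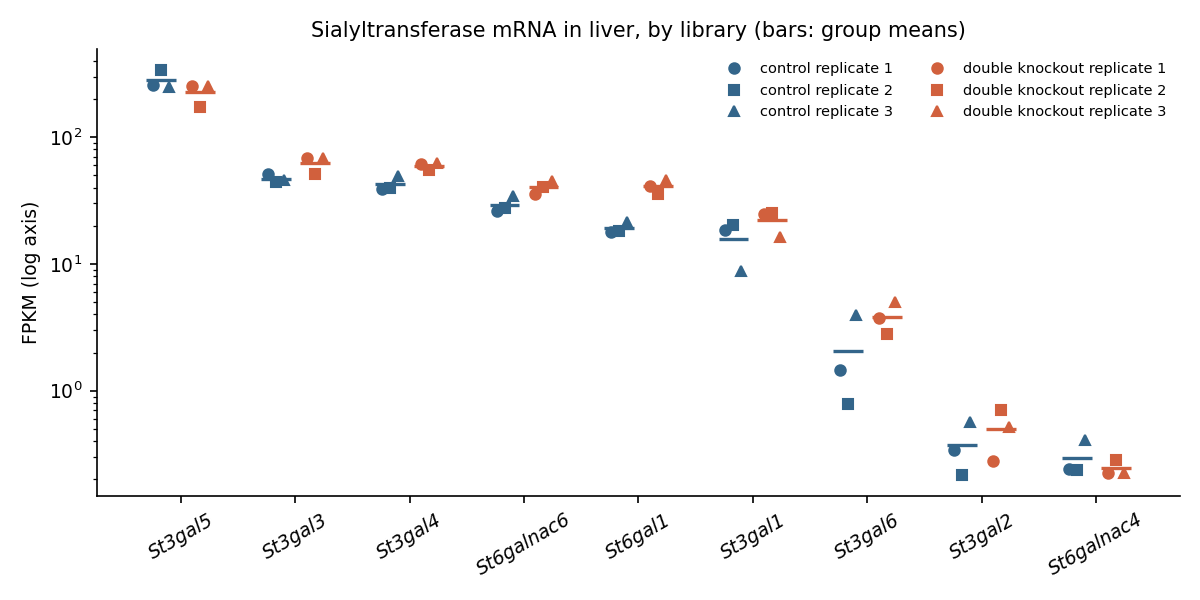
FPKM of the 9 sialyltransferase genes in each of the 6 liver libraries, on a log axis; symbols mark the replicate, colours the group, and short bars the group means, with genes ordered by the control mean. St6gal1 separates the groups most clearly, with controls between 17.8 and 21.3 FPKM and knockouts between 35.6 and 45.8 FPKM.

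limma was run on genes that averaged 0.5 FPKM or more across the 6 libraries, using log2(FPKM + 1), and p-values were adjusted over all 11810 of them. Of the 9 sialyltransferases, 7 were tested; each of the 7 had a mean above that level in both groups. St3gal2 and St6galnac4 were not tested. None of the 7 passed the adjusted threshold of 0.05 in limma, where 0.313% of all tested genes did (20 or 0.169% higher and 17 or 0.144% lower in the knockouts, but 54 higher and 18 lower with each library scaled to the same sum). By the unadjusted limma p, 4 of the 7 were under 0.05, all higher in the knockouts, against 6.97% of all tested genes under 0.05 and higher and 7.98% under 0.05 and lower. Their values did not overlap between the groups, with all knockouts higher, in 3 of the 7, St6gal1, St3gal4 and St6galnac6, against 11.3% of all tested genes; none was lower in all knockouts, and 22.9% of all tested genes were apart in either direction. Fold changes were positive in 6 of the 7, against 49.2% of all tested genes, and their median was 0.48 on the log2 scale, against -0.01 over all tested genes. Without control replicate 3, again 6 of 7 were positive. All knockouts were then higher in 4 of 7, against 21.5% of all tested genes, and lower in St3gal5, against 23%.

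St6gal1 (ENSMUSG00000022885.15, chromosome 16, 23224740 to 23360350, plus strand, GRCm38) encodes the hepatic alpha2,6-sialyltransferase of N-glycans, an enzyme that is also cleaved and secreted into plasma. It measured 17.8, 18.3 and 21.3 FPKM in control livers and 41.5, 35.6 and 45.8 FPKM in double-knockout livers. Every knockout lay above every control, and the lowest knockout exceeded the highest control by more than the spread within the controls. The ratio of the means was 2.14, the log2 fold change was 1.06 (SE 0.15), and the limma adjusted p was 0.0539, just over the threshold; the gene stood at position 38 of the 11810 when ordered by p. An exact two-sided permutation test gave p = 0.1, the smallest that 3 against 3 libraries allow. Without control replicate 3 the log2 fold change was 1.13 and passed (limma adjusted p = 0.0269; 1.13% of all tested genes passed higher and 0.652% lower there), while leaving out any 1 of the other 5 libraries gave limma adjusted p-values between 0.137 and 0.259. The authors' deposited table called St6gal1 higher, with a q-value of 0.0319, the only one of the 7 sialyltransferases tested there that it called; that table called 4.58% of the genes it tested, 2.85% higher and 1.73% lower.

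**Figure D2:**
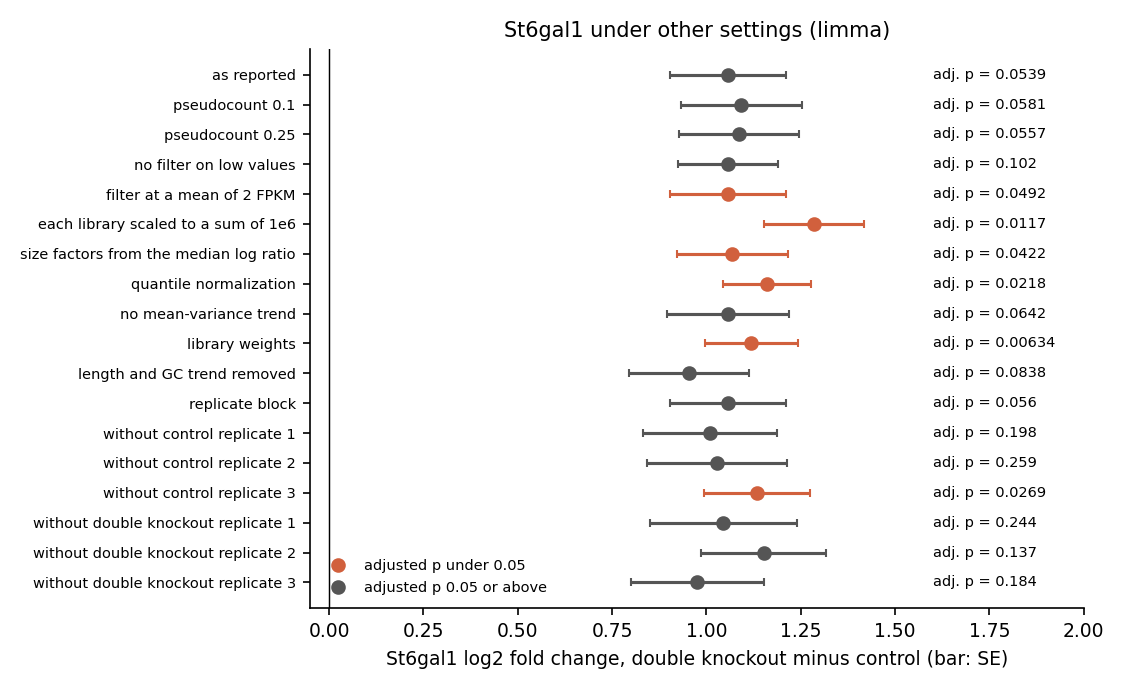
Log2 fold change of St6gal1, double knockout minus control, with its SE, as reported and under each other setting; orange marks an adjusted p under 0.05. The fold change stays between 0.95 and 1.29, and the adjusted p lies on either side of the threshold, from 0.00634 to 0.259.

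Transcription of St6gal1 starts at several sites that different tissues use, one of them the main start in hepatocytes, and the gene-level FPKM adds them up. RefSeq (GRCm38.p6) gives 3 start sites on chromosome 16, of which the middle one lies 1281 bases and the last 65730 bases after the first. The 250 bases before each start are shown because the St6gal1 signal can arise from any of them. Windows from 250 bases before to 50 after each start were searched on both strands for AGGTCA, the hexamer that many nuclear receptors bind, for AGGTCANTGACCT, the inverted repeat of that hexamer around a single base and the arrangement FXR is known for, and for TCAAGGTCA, a longer form that contains AGGTCA. Capitals mark a match.
St6gal1, first start, chr16:23224490-23224739, plus strand: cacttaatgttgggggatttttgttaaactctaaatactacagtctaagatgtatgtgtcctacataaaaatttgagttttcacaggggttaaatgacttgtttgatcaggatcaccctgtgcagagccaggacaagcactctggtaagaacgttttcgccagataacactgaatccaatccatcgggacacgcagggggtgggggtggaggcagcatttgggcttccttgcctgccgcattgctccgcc
St6gal1, middle start, chr16:23225771-23226020, plus strand: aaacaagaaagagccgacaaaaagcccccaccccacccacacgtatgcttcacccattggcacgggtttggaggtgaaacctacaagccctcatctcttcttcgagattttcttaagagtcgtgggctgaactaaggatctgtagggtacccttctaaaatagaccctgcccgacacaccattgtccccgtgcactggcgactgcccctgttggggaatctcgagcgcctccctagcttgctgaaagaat
St6gal1, last start, chr16:23290220-23290469, plus strand: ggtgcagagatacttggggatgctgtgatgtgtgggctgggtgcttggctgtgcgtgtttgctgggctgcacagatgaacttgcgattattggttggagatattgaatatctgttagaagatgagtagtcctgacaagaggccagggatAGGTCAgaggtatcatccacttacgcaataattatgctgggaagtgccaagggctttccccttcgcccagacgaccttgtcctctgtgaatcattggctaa
The window of the last start held AGGTCA once, with its first base at -101 counted from the start, on the strand of the gene, and the other 2 windows held no match. AGGTCA was present in 16.3% of all 32851 promoter windows of this length, so 1 match in 3 windows is common. The inverted repeat occurred in 3 of all windows (0.00913%) and the longer form in 0.423%, and neither was in a window of the sialyltransferases. RefSeq windows were found for 7 of the 9 genes, 10 windows in all, and the match in St6gal1 was the only one of any of these motifs among them. The 3 St6gal1 windows had a GC content of 48.0%, 50.7% and 49.7%, below the median of all windows (52.7%).

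Among the alpha2,3 enzymes of N-glycans, St3gal4 (ENSMUSG00000032038.6, chromosome 9, 35046576 to 35119268, minus strand), which sialylates the galactose of type 2 chains, measured 38.9, 39.6 and 49.6 FPKM in control livers and 61.2, 54.6 and 62.9 FPKM in double-knockout livers. The groups did not overlap, and the ratio of the means was 1.40 (log2 fold change 0.48, SE 0.15, limma adjusted p = 0.239). Its nearest relation in level, St3gal3 (ENSMUSG00000028538.12, chromosome 4, 117932154 to 118134914, minus strand), measured 51.4, 44.5 and 45.7 FPKM in control livers and 68.8, 51.4 and 69.0 FPKM in double-knockout livers. The overlap of the St3gal3 groups came from 1 pair of libraries, control replicate 1 and double knockout replicate 2, which differed by 0.0009 FPKM. Its ratio of means was 1.34 (log2 fold change 0.40, SE 0.17, limma adjusted p = 0.324).

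St3gal6 (ENSMUSG00000022747.16, chromosome 16, 58468125 to 58524243, minus strand), another enzyme for type 2 chains, was a minor transcript, with 1.45, 0.789 and 3.98 FPKM in control livers and 3.75, 2.81 and 4.97 FPKM in double-knockout livers. Control replicate 3 lay among the knockouts, and the other 2 controls lay below all of them. The ratio of the means was 1.85 with all libraries (log2 fold change 0.77, SE 0.37, limma adjusted p = 0.380) and 3.43 without control replicate 3, when limma gave a log2 fold change of 1.18 (adjusted p = 0.0698). Summed, St3gal3, St3gal4 and St3gal6 came to between 84.9 and 99.3 FPKM in the controls and between 109 and 137 FPKM in the knockouts.

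The 250 bases before the start of the other 2 genes whose groups did not overlap are printed for comparison with those of St6gal1; neither holds any of the motifs, so both are in lower case.
St3gal4, chr9:35116865-35117114, minus strand: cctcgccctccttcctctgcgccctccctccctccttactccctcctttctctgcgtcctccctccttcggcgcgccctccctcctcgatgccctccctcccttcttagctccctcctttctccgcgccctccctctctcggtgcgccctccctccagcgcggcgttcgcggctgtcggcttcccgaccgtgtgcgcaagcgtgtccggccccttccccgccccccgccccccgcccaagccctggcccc
St6galnac6, chr2:32599459-32599708, plus strand: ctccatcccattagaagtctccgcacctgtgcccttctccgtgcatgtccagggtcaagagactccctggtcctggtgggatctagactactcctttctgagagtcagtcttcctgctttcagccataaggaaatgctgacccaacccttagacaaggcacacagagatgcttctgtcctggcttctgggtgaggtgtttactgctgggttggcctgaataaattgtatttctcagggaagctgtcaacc
The St3gal4 window had a GC content of 74.0% and 31 CpG dinucleotides, like those of St3gal3 (70.0% and 26) and St3gal5 (72.7% and 33). The St6galnac6 window, at 52.0% with 2 CpG dinucleotides, was closer to those of St6gal1, which held 6 to 10. Most of the printed St6galnac6 stretch lies within the annotated St6galnac4 gene, which ends at 32599698 on the same strand.

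Of the enzymes for O-glycans and glycolipids, St3gal5 (ENSMUSG00000056091.12, chromosome 6, 72097592 to 72154571, plus strand), the GM3 synthase, was the only tested sialyltransferase with a negative fold change. It measured 260, 342 and 251 FPKM in control livers and 252, 174 and 255 FPKM in double-knockout livers. The groups overlapped only through control replicate 3, and 2 of the 3 knockouts were level with control replicates 1 and 3. The lowest value, in double knockout replicate 2, came with the lowest albumin mRNA of the 6 libraries (17009 FPKM, against 23233 to 43645 in the others), and the part of that in the result was not tested. The log2 fold change was -0.33 (SE 0.22, limma adjusted p = 0.501) and the ratio of the means was 0.799. Without control replicate 3 all knockouts lay below the other controls, where 23% of all tested genes were apart and lower. The ratio of the means was then 0.755 and the log2 fold change -0.41 (limma adjusted p = 0.319).

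St6galnac6 (ENSMUSG00000026811.18, chromosome 2, 32599709 to 32620806, plus strand), which adds alpha2,6-linked sialic acid to gangliosides and related glycolipids, measured 26.3, 27.5 and 34.1 FPKM in control livers and 35.4, 40.5 and 45.5 FPKM in double-knockout livers. All knockouts were higher, the lowest of them by little over control replicate 3. The ratio of the means was 1.38 (log2 fold change 0.45, SE 0.16, limma adjusted p = 0.279). Its neighbour St6galnac4 (ENSMUSG00000079442.12, chromosome 2, 32587095 to 32599698, plus strand), which acts on sialylated core 1 O-glycans and ends just before St6galnac6 begins, was at 0.243, 0.237 and 0.408 FPKM in control livers and 0.224, 0.286 and 0.225 FPKM in double-knockout livers. These St6galnac4 values overlapped and were too low for the test, and the ratio of the means was 0.826 with all libraries and 1.02 without control replicate 3.

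St3gal1 (ENSMUSG00000013846.9, chromosome 15, 67102875 to 67176830, minus strand), the main enzyme of core 1 O-glycans, measured 18.4, 20.1 and 8.80 FPKM in control livers and 24.8, 25.0 and 16.4 FPKM in double-knockout livers. Its low control was replicate 3. The log2 fold change of St3gal1 was 0.51 (SE 0.32, limma adjusted p = 0.478) and became 0.16 without that library. The ratio of the means was 1.40 with all libraries and 1.14 without control replicate 3. St3gal2 (ENSMUSG00000031749.12, chromosome 8, 110919922 to 110972480, plus strand), which sialylates core 1 chains and gangliosides, was at 0.341, 0.215 and 0.565 FPKM in control livers and 0.278, 0.707 and 0.519 FPKM in double-knockout livers, overlapping and below the level tested; its ratio of means was 1.34, and 1.80 without control replicate 3.

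**Figure D3:**
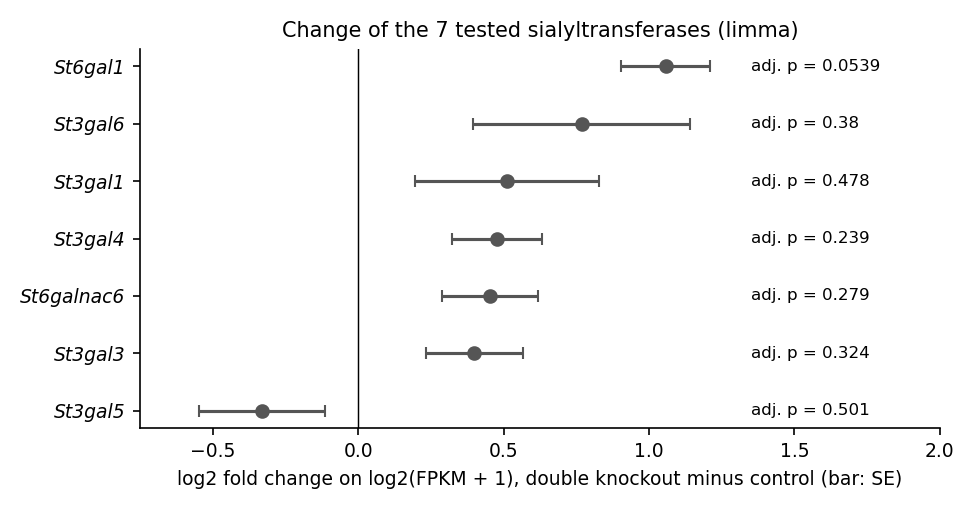
Log2 fold change on the log2(FPKM + 1) scale, double knockout minus control, with its SE, for the 7 tested sialyltransferases, with the limma p adjusted over all tested genes. St6gal1 lies at 1.06, 5 others between 0.40 and 0.77, and St3gal5 at -0.33.

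Ratios within a library do not depend on how that library was scaled, and they set St6gal1 apart from the more abundant alpha2,3 genes. St6gal1 over St3gal4 was 0.457, 0.461 and 0.430 in the controls and 0.678, 0.652 and 0.727 in the knockouts. St6gal1 over St3gal3 was 0.346, 0.411 and 0.466 in the controls and 0.603, 0.694 and 0.663 in the knockouts. In both ratios every knockout was higher, control replicate 3 included in the comparison, by 0.61 and 0.69 on the log2 scale. Of the 6 ratios computed, the one to the GM3 synthase gene differed most, with St6gal1 over St3gal5 at 0.0683, 0.0535 and 0.0849 in the controls and 0.165, 0.205 and 0.179 in the knockouts, a difference of 1.43 on the log2 scale.

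Against St6galnac6 the ratio was 0.625 to 0.677 in the controls and 0.880 to 1.17 in the knockouts. Of 6 such pairs with St6gal1, these 4 gave an exact two-sided permutation p of 0.1 each, the smallest possible, and 0.15 after adjustment over the 6 pairs. All 6 pairs share St6gal1, whose own values did not overlap between the groups, so they are not separate tests. The largest difference, against St3gal5, divides St6gal1 by the only tested sialyltransferase with a negative fold change. The ratios of St6gal1 to St3gal1 (exact permutation p = 0.3, adjusted 0.36) and to St3gal6 (0.9 for both) overlapped between the groups. The ratio to St3gal6 was 5.35 to 23.2 in the controls and 9.21 to 12.7 in the knockouts.

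Of the summed FPKM of the 9 genes, St6gal1 made up 4.28%, 3.71% and 5.13% in the controls and 8.50%, 9.25% and 9.14% in the knockouts. The share of St3gal5 was 60.4% to 69.3% in the controls and 45.2% to 51.6% in the knockouts. The sum itself overlapped between the groups (415 to 493 FPKM and 385 to 501 FPKM). Without St3gal5 the sum was 151 to 164 FPKM in the controls and 211 to 245 FPKM in the knockouts. These shares and sums were not tested.

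**Figure D4:**
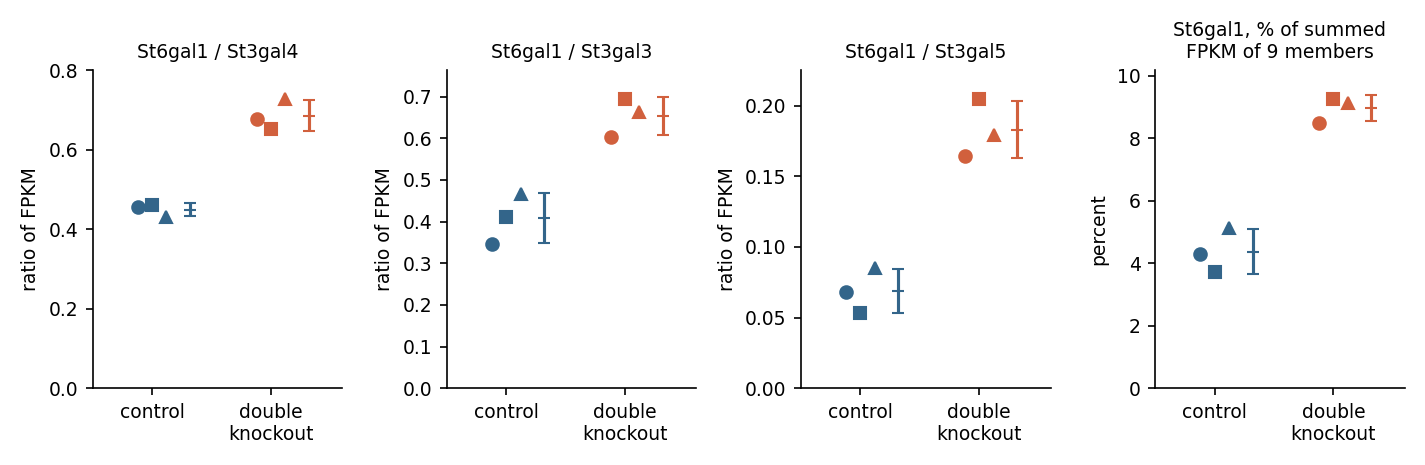
St6gal1 FPKM divided by that of St3gal4, St3gal3 or St3gal5 in each library, and St6gal1 as a percent of the summed FPKM of the 9 sialyltransferases; circles, squares and triangles are replicates 1, 2 and 3, and bars beside them are the mean ± SD (n = 3 each). In each panel the 3 knockouts lie above the 3 controls, for the share at 8.50% to 9.25% against 3.71% to 5.13%.

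The rest of the family was scarcely detected. The other 11 mouse sialyltransferases, St6gal2, St6galnac1, St6galnac2, St6galnac3, St6galnac5 and the polysialyltransferases and related St8sia1 to St8sia6, never exceeded 0.695 FPKM in a library, none reached the level tested, and 3 of them were listed at 0 in all 6 libraries. The value of 0.695 FPKM belonged to St6galnac3 in double knockout replicate 1, chosen after its values were seen.

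Genes that supply CMP-sialic acid lay on the other side of 0 from most of the transferases. Of the 5 in the list, 4 were tested; all 4 had negative fold changes (median -0.34), 0 passed limma's adjusted threshold, and 2 had an unadjusted limma p under 0.05, against 7.98% of all tested genes under 0.05 and lower. Of the 4, 3 did not overlap between the groups, with all knockouts lower, against 11.6% of all tested genes. Gne, the bifunctional epimerase and kinase that starts sialic acid synthesis, measured 73.2, 91.1 and 90.4 FPKM in control livers and 51.4, 43.3 and 68.7 FPKM in double-knockout livers (log2 fold change -0.65, limma adjusted p = 0.227). Cmas, which activates sialic acid with CMP, measured 36.3, 33.4 and 34.9 FPKM against 28.4, 29.0 and 26.5 FPKM, and Slc35a1, which carries CMP-sialic acid into the Golgi, 12.6, 12.6 and 12.1 FPKM against 11.3, 9.40 and 8.31 FPKM. Their knockout values were thus below all controls, by a ratio of means of 0.642 for Gne, 0.803 for Cmas and 0.777 for Slc35a1. All 4 fold changes were also negative without control replicate 3. Hepatocyte markers were on the same side, 7 of 8 negative with a median of -0.40, and their part in these values was not tested.

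The acceptor side was mixed. Of 13 genes for N-glycan branching and galactose, 10 were tested, 9 with positive fold changes (median 0.26, limma calls 0, unadjusted p under 0.05 and higher in 3, against 6.97% of all tested genes). The most abundant, Man2a1 (Golgi mannosidase II), was at 34.4 ± 5.49 and 43.1 ± 5.73 FPKM, Mgat1 at 25.2 ± 4.68 and 28.9 ± 2.34 FPKM, and Mgat2 at 19.1 ± 3.55 and 20.9 ± 1.96 FPKM (SD, n = 3 each), all with overlapping groups. Fut8, Mgat5 and B4galt1, chosen after their values were seen, were the 3 without overlap, against 11.3% of all tested genes apart and higher. Fut8, the core fucosyltransferase, was at 1.30 ± 0.225 and 3.39 ± 0.536 FPKM, and Mgat5, which starts a further branch, at 0.907 ± 0.194 and 2.15 ± 0.253 FPKM (SD, n = 3 each). Both were called higher, with q = 0.00121, in the authors' deposited table. B4galt1, which adds the galactose that sialic acid is placed on, measured 9.67, 9.02 and 11.3 FPKM in control livers and 13.9, 13.3 and 11.9 FPKM in double-knockout livers (limma adjusted p = 0.321). Without control replicate 3, 8 of the 10 were positive and 1, Fut8, passed, where 1.13% of all tested genes passed higher and 0.652% lower. Of 10 genes for O-glycan cores and gangliosides, 7 were tested, 3 with positive and 4 with negative fold changes (median -0.05, limma calls 0). Unadjusted, 1 of these 7 was under 0.05 in limma, lower, against 7.98% of all tested genes, and 2 were apart and lower, against 11.6%.

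C1galt1c1, the chaperone that core 1 galactosyltransferase needs, measured 20.8, 24.7 and 20.6 FPKM in control livers and 14.7, 12.6 and 11.2 FPKM in double-knockout livers (log2 fold change -0.74, limma adjusted p = 0.132; q = 0.0205, called lower, in the authors' deposited table). B4galnt1, which extends GM3 to GM2, measured 29.3, 34.1 and 28.9 FPKM against 25.3, 23.4 and 28.2 FPKM, lower in every knockout (limma adjusted p = 0.443), and Galnt1, which starts O-glycans, was at 13.2 ± 1.46 and 13.7 ± 0.976 FPKM (SD, n = 3 each).

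Enzymes that remove or modify sialic acid showed no gene without overlap, where 22.9% of all tested genes were apart in either direction. Of 9, 7 were tested, 5 with positive fold changes (median 0.16), 0 with an adjusted and 0 with an unadjusted limma p under 0.05. Cmah, which hydroxylates CMP-sialic acid, was at 17.5 ± 4.50 and 21.0 ± 1.59 FPKM, the lysosomal sialidase Neu1 at 17.7 ± 4.81 and 15.6 ± 1.95 FPKM, and the sialic acid esterase Siae at 10.2 ± 3.41 and 14.3 ± 2.52 FPKM (SD, n = 3 each). Of the lectins that read sialic acid or the galactose below it, together with Bace1, a protease known to cleave the St6gal1 enzyme, 5 of 10 were tested, 2 with positive and 3 with negative fold changes (median -0.07), 0 past limma's adjusted threshold and 1 with an unadjusted p under 0.05, lower, against 7.98% of all tested genes. Of these 5, 1 was apart and higher, against 11.3% of all tested genes, and 1 apart and lower, against 11.6%. The higher gene was Siglec1, a macrophage lectin chosen after its values were seen, at 0.338 ± 0.141 and 1.02 ± 0.710 FPKM (SD, n = 3 each). Double knockout replicate 2 was at 1.83 FPKM, the other knockouts at 0.642 and 0.569 FPKM, and the controls at most at 0.488 FPKM. The limma adjusted p of Siglec1 was 0.369, and the authors' deposited table called it higher (q = 0.00226).

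Asgr2, a subunit of the asialoglycoprotein receptor, was the gene with the low unadjusted p, with 157, 193 and 191 FPKM in control livers and 132, 105 and 149 FPKM in double-knockout livers (limma adjusted p = 0.292). Its partner Asgr1 measured 446, 524 and 729 FPKM against 424, 345 and 477 FPKM, with overlap, and Bace1 was at 5.79 ± 0.812 and 5.46 ± 0.493 FPKM (SD, n = 3 each).

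**Figure D5:**
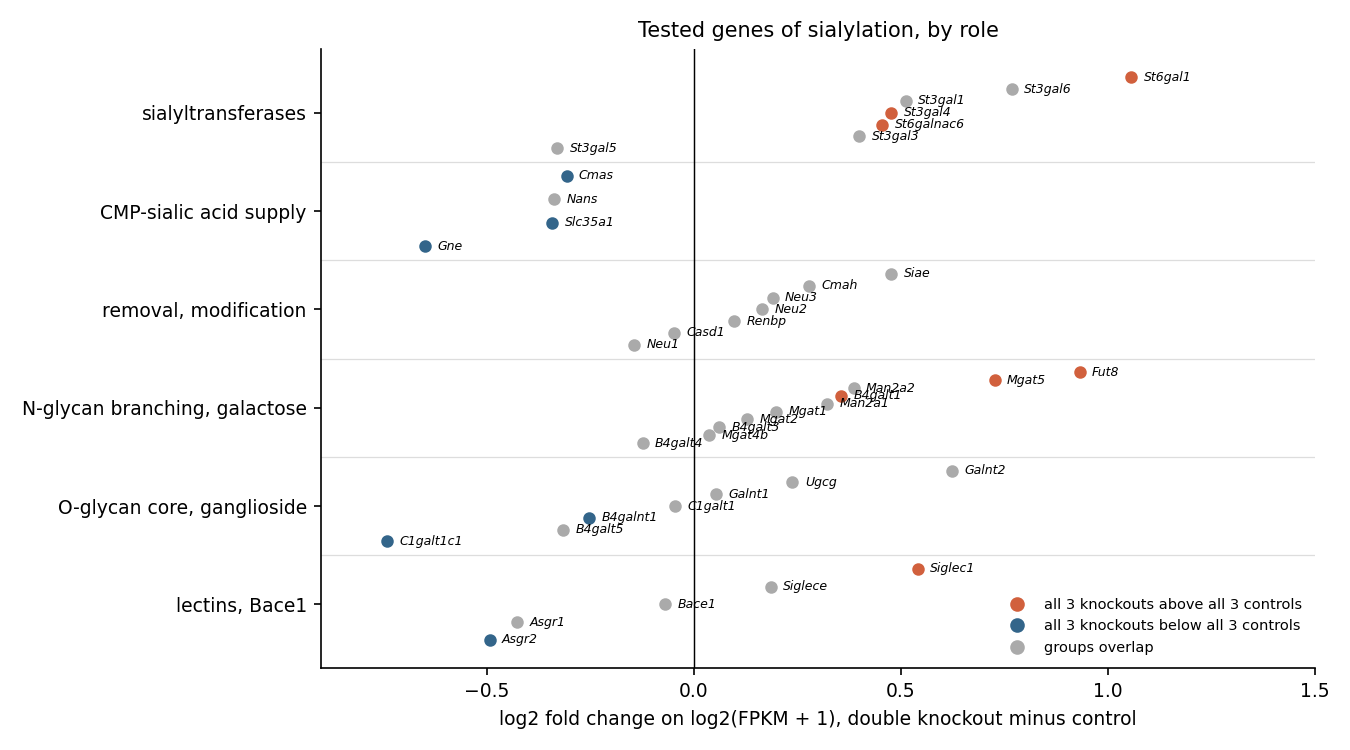
Log2 fold change on the log2(FPKM + 1) scale, double knockout minus control, for the tested genes of 6 lists, in rows by role; orange marks genes with all 3 knockouts above all 3 controls, blue the reverse, and grey an overlap. Of the 7 sialyltransferases, 6 lie right of 0, and all 4 tested genes of CMP-sialic acid supply left of it.

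Whole liver was measured, so fewer cells of a type and less RNA per cell cannot be told apart. Markers of other cell types were therefore summed in each library. Of 6 B and plasma cell markers, 1 was tested, none was at 0 in all libraries, Ms4a1 was at most at 0.279 FPKM, and their summed level was 2.09 to 2.93 FPKM in the controls and 0.783 to 2.58 FPKM in the knockouts. The 10 macrophage markers all had positive fold changes with overlapping groups, and 0 passed in limma. The authors' deposited table called 4 of them higher (Adgre1, Cd5l, Marco and Csf1r), against 2.85% of the genes it tested. Of the other marker lists it called Spp1 of cholangiocytes (q = 0.0346) and Col1a1 of stellate cells (q = 0.00226) higher. The macrophage markers summed to 103 to 253 FPKM in the controls and 156 to 396 FPKM in the knockouts. These sums were highest in double knockout replicate 2, the knockout with the lowest St6gal1, and next in control replicate 3, the control with the highest St6gal1. The 7 sinusoidal endothelial markers, 3 with positive and 4 with negative fold changes, summed to 45.7 to 56.8 FPKM and 34.5 to 64.1 FPKM. Of these 7, 1 (Stab2) was apart and higher, against 11.3% of all tested genes. Cholangiocyte markers, 4 of 6 tested and 4 positive, summed to 33.8 to 44.2 FPKM in the controls and 59.1 to 64.0 FPKM in the knockouts, nearly all of it Spp1 (31.1 to 42.6 and 55.2 to 60.9 FPKM). Epcam, at 0.477 to 0.760 FPKM in control livers and 0.862 to 1.29 FPKM in the knockouts, was like Spp1 without overlap. These were 2 of the 4 tested, against 11.3% of all tested genes apart and higher. Krt19 and Krt7 were at most at 1.13 FPKM. Hepatocyte markers, 7 of 8 with negative fold changes, summed to 60256 to 72164 FPKM and 31594 to 53246 FPKM. Of these 8, 2 were apart and lower, against 11.6% of all tested genes. T cell markers summed to 1.02 to 1.62 FPKM and 0.990 to 3.29 FPKM, neutrophil markers to 0.893 to 50.9 FPKM and 1.63 to 17.7 FPKM, and stellate cell markers to 52.7 to 102 FPKM and 52.6 to 134 FPKM. The part of these cell types in the sialyltransferase values was not tested.

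Across the 6 libraries, the tested sialyltransferase closest to St6gal1 in pattern was St3gal4 (Pearson r = 0.959 on log2(FPKM + 1)), followed by St6galnac6 (0.892) and St3gal3 (0.853), while St3gal5 ran the other way (-0.491). Among 9897 other genes averaging 1 FPKM or more, the 5 most like St6gal1 were Acaca (0.993), Tenm3 (0.991), Rasgrp2 (0.990), Mtmr1 (0.990) and Gtf2e1 (0.990). Acaca, the acetyl-CoA carboxylase of fatty acid synthesis, measured 3.75, 3.29 and 4.10 FPKM in control livers and 8.07, 6.63 and 8.86 FPKM in double-knockout livers. Tenm3, a teneurin cell adhesion protein, measured 0.986, 0.948 and 1.27 FPKM against 2.77, 2.64 and 3.82 FPKM. Of the 5, 1 passed limma's threshold, Rasgrp2 (limma adjusted p = 0.0219), an exchange factor for Rap proteins. All of these share the split into 2 groups and the same 6 libraries, so such correlations are a description of these samples.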

How the data were processed

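Liver mRNA of 6 mice was sequenced from stranded libraries made from 1 µg of total RNA, per the labels' protocols. Cuffdiff 2.2.1, STAR 2.4.2a, Trimmomatic, Picard 1.119 and the build GRCm38 (mm10) are listed, without roles or order, per the submitters' processing notes. Neither the gene annotation nor the strand setting is given in the sources used here. Per library, FPKM of 48699 genes were deposited by the authors. They also deposited a comparison with group FPKM, p-values and q-values. Libraries were matched by genotype word and number to the sample titles, and 0 columns of per-library values were left unused. Nothing in the labels describes how the mice of a group are related, so p-values measure only the spread between these samples.

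FPKM are not counts, so limma 3.58.1 (R 4.3.3) was run with its trend option, using log2(FPKM + 1) of genes that averaged 0.5 FPKM or more, with Benjamini-Hochberg adjustment over all 11810 and a threshold of 0.05; fold changes on this scale understate changes of low genes. The fit was tested on simulated data with known changes. Larger changes were called more often than smaller ones, and not all were called, so a gene not called may still differ. Depth was read from the smallest FPKM steps of genes with 1 transcript, and differed by at most 1.07 times. Gene positions are from GENCODE M21 (GRCm38), matched by identifier without version; 48343 identifiers matched. The authors' table gives St3gal1 a shorter locus than M21 does. Promoter sequences are RefSeq's (GRCm38.p6).

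Genes named are the sialyltransferases, the 3 most abundant of each other list where none passed, and the 5 most like St6gal1; others, named to account for a count or a marker list, were picked with their values in view. The members and lists were chosen with earlier results of these data known. Alternatives are in the closing section.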

Additional observations from a re-analysis of the deposited data

How the results depend on the processing

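The sign of the fold change of each of the 7 tested sialyltransferases was the same under all 17 alternatives run. St6gal1 kept a log2 fold change between 0.95 and 1.29 and passed the threshold in 6 of the 17: with a filter of 2 FPKM (1.06, limma adjusted p = 0.0492), libraries scaled to a sum of 1e6 (1.29, 0.0117), size factors (1.07, 0.0422), quantile normalization (1.16, 0.0218), library weights (1.12, 0.00634) and without control replicate 3. Leaving out 1 library gave 0.98 to 1.15. Scaling to the sum moved the median of all genes to 0.18, and relative to it St6gal1 stood at 1.11 and St3gal5 at -0.28. With the length and GC trend removed, St6gal1 was at 0.95 (limma adjusted p = 0.0838).

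The count of sialyltransferases past the threshold was 1 under the first 4 of those settings and 3 with library weights (with St3gal4, 0.57, limma adjusted p = 0.0401, and St3gal6, 1.16, 0.0463), and 0 to 1 with 1 library left out. Over all genes, limma called 13 higher with a pseudocount of 0.1, 54 with scaling to the sum and 326 with library weights. Without a filter it called 0 higher and 2 lower (2222 genes with an unadjusted p under 0.05). Library weights gave 237 lower. Leaving out 1 library gave 0 to 133 higher and 2 to 77 lower, most without control replicate 3. The count was 0 higher without control replicate 2 (1047 with an unadjusted p under 0.05) and without double knockout replicate 2 (1081).

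Deviations of same-numbered libraries correlated at 0.22, -0.08 and 0.30, and those of the other pairs at -0.32 to 0.25. So few values cannot decide whether the replicate numbers pair the samples. A replicate block gave 27 higher and 23 lower, and St6gal1 an adjusted p of 0.0560 in limma. With the block the SE of St3gal1 was 0.17 rather than 0.32 (limma adjusted p = 0.237). That of St3gal6 was 0.21 rather than 0.37 (limma adjusted p = 0.192). St3gal2 and St6galnac4, not tested, differed by 0.13 and -0.056 on the log2 scale as reported, and by 0.34 and -0.18 at a pseudocount of 0.1; St6galnac4 was at 0.0049 without control replicate 3. At this depth, values under 1 FPKM rest on few fragments. Counts for the gene lists without control replicate 3 were added after seeing the data.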
